A study of Mus musculus with 6 samples.

Results

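Il1rapl1, Asic2, Magi1 and Syne2 were followed across the classes of nuclei in mouse white adipose tissue. The 4 genes were taken by symbol from the 56980 genes listed in each library, and each symbol named 1 row. They had been proposed from the difference between visceral and subcutaneous fat in fibroblasts, and from their levels in fibroblast, mesothelial, ovarian and oviduct nuclei, so those levels are given here as a description with no test. The tissue came from female C57BL/6J mice, and single-nucleus RNA-seq was analysed for 6 libraries. Of these, 2 came from the inguinal subcutaneous depot (SAT) of mice aged 2 months, 2 from the same depot at 24 months, and 2 from the gonadal visceral depot (VAT) at 24 months. The design text puts the older mice at 26 months, and the age on the labels, 24 months, is used here. No genotype change or treatment is stated for any group. VAT at 2 months was not analysed here, so age could be compared in SAT alone. The depots at 24 months may thus share mice. Tissue of each age was taken from a pair of mice, but no label ties a library to a mouse.

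The 4 genes encode unrelated proteins. Il1rapl1 is an interleukin-1 receptor accessory protein-like adhesion molecule, known mainly from synapses, where it binds receptor tyrosine phosphatases. Asic2 is a subunit of proton-gated sodium channels of the degenerin family. Magi1 is a scaffold of the membrane-associated guanylate kinase family that sits at cell junctions, and Syne2 (nesprin-2) spans the outer nuclear membrane as part of the complex that links the nucleus to the cytoskeleton. White fat holds adipocytes, fibroblasts that include adipocyte progenitors, immune and vascular cells. Visceral depots are also covered by mesothelium, a flat epithelium that lines the body cavities, and gonadal fat lies against the ovary and oviduct.

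In GRCm39 with the GENCODE M39 annotation, the protein-coding gene Il1rapl1 (ENSMUSG00000052372) lies on chromosome X, positions 85784476 to 87159281, on the minus strand, and spans 1375 kb. Asic2 (ENSMUSG00000020704) lies on chromosome 11, 80770995 to 81859283, on the minus strand, over 1088 kb. Magi1 (ENSMUSG00000045095) lies on chromosome 6, 93652434 to 94260898, on the minus strand, over 608 kb. Syne2 (ENSMUSG00000063450) lies on chromosome 12, 75864908 to 76157700, on the plus strand, over 293 kb. Exons cover 0.682%, 0.392%, 1.74% and 9.25% of these spans in the same order, so introns make up most of what unspliced nuclear RNA can report. No other protein-coding gene overlaps them. Non-coding genes do, 7 at Il1rapl1, 17 at Asic2, 4 at Magi1 and 2 at Syne2, and counts of overlapping genes are uncertain because the strand setting of the counting is not given in the sources used here. Levels are therefore compared within a gene and not between genes.

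Il1rapl1 and Asic2 were both highest in the same class of nuclei, as described below, and the upstream windows of both are shown so that they can be compared. They are the RefSeq promoter windows (taken from GRCm38.p6), cut to the bases upstream of the RefSeq start and outside the gene in GENCODE, and placed by exact match at chrX:87159555-87159804 and chr11:81859284-81859472 in GRCm39, both read on the minus strand, 5′ to 3′. Capitals mark CCAAT or its reverse complement ATTGG.
Il1rapl1: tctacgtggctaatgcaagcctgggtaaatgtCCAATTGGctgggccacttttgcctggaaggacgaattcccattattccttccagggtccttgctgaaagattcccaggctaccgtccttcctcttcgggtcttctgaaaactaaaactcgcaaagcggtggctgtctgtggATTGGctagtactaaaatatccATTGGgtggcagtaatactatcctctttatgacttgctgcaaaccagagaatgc
Asic2: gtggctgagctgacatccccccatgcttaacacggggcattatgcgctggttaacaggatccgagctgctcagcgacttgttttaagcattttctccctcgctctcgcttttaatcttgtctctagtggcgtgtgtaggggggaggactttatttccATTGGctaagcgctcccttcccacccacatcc
CCAAT and 3 further motifs were searched on both strands of the 250-base windows. The TATA box was searched as TATAAA. The GC box was searched by its core, written GGGCGG. For factors of the GATA family, the letters taken were GATAA. The first motif was matched 4 times at Il1rapl1, where 2 matches overlap in CCAATTGG, and once at Asic2, and 33.8% of the 32851 windows in the table hold it. The TATA box and the GC box were matched in neither window (12.4% and 32.7% of all windows hold them), and the GATA motif (22.6% of all windows) was matched once at Asic2 in the bases not printed. A second Asic2 window of the table, at chr11:81043730-81043979 inside the gene, held none of the 4 motifs and is not printed. These are matches of letters and not binding sites.

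Across the 6 libraries 27074 nuclei passed the filters, with 2490 to 5776 nuclei and a median of 1380 to 1878 UMIs (unique molecular identifiers, each a counted RNA molecule) per nucleus. Classes were named from marker genes, so each name carries "-like". VAT replicate 2 stood apart. It held 479 steroidogenic ovarian-like nuclei, 462 oviduct secretory-like nuclei and 165 multiciliated-like nuclei, where the other 5 libraries held at most 3 of each, and mesothelial-like nuclei made up 36.1% of it against 4.92% of VAT replicate 1. Its median mitochondrial share was 5.07%, against 0.776% to 3.49% in the other libraries. Each result that rests on VAT is given for the 2 libraries separately. Between 2 libraries at most 0.769% of the barcodes of the smaller were shared.

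Most UMIs of Il1rapl1 in VAT lay in mesothelial-like nuclei. In VAT replicate 1 they held 672 of 919 UMIs, or 73.1% (95% exact binomial interval 70.1 to 76.0%), although they made up 4.92% of the nuclei. In VAT replicate 2 they held 1542 of 1947 UMIs, or 79.2% (77.3 to 81.0%). Fibroblast-like nuclei held 3.81% and 1.95%. Without the mesothelial-like nuclei the level of Il1rapl1 over the whole library went from 85.8 to 24.0 CPM (UMIs of the gene relative to all UMIs summed, on the usual scale) in VAT replicate 1, and from 191 to 68.4 CPM in VAT replicate 2, while the whole SAT libraries had 42.6 and 38.1 CPM at 2 months against 35.0 and 15 CPM at 24 months. These intervals, like all below, cover counting error only. In bulk sums, fewer nuclei of a class and less RNA per nucleus cannot be told apart.

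For Asic2 the mesothelial-like share was 51.9% in VAT replicate 1, 340 of 655 UMIs (48.0 to 55.8%), and 64.0% in VAT replicate 2, 1576 of 2462 UMIs (62.1 to 65.9%). Magi1 and Syne2 had another distribution. In VAT replicate 1, mesothelial-like nuclei held 5.27% of the Magi1 UMIs and 6.83% of the Syne2 UMIs, and adipocyte-like nuclei held 72.3% and 76.7%. Over all genes, adipocyte-like nuclei held 7847562 UMIs there and mesothelial-like nuclei 419235, so these shares are to be read against the class sizes. The levels were higher in mesothelial-like than in adipocyte-like nuclei, at 265 against 194 CPM of Magi1 and 663 against 398 CPM of Syne2. In VAT replicate 2, mesothelial-like nuclei held 77.5% of 12563 Magi1 UMIs and 70.9% of 19237 Syne2 UMIs, and with the ovarian-like, oviduct-like and multiciliated-like nuclei they held 87.4% and 86.7%. Those 4 classes together made up 57.9% of its nuclei and 64.7% of all its UMIs, so the shares are to be read against 64.7%. Without them VAT replicate 2 remained at 438 CPM of Magi1 and 707 CPM of Syne2, still above the 194 and 368 CPM of VAT replicate 1 treated the same way. In SAT, where at most 1 nucleus per library was mesothelial-like, the UMIs of all 4 genes lay mainly in adipocyte-like, immune-like, mammary epithelial-like and unnamed nuclei.

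**Figure D1:**
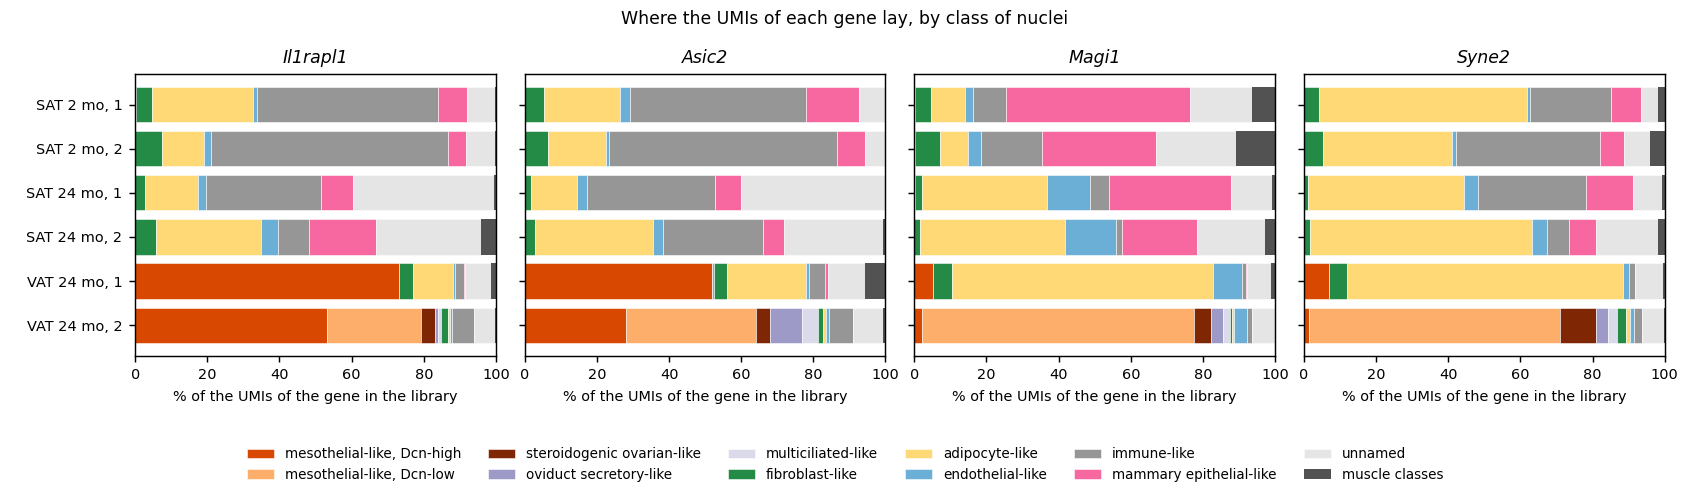
Share of the UMIs of each gene (x axis, percent of the gene's UMIs in the library) by class of nuclei, with 1 bar per library. The bars of the VAT libraries start with mesothelial-like nuclei, which hold 73.1% and 79.2% of the Il1rapl1 UMIs, while for Magi1 and Syne2 that holds for VAT replicate 2 alone.

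The mesothelial-like class itself was split, and the 4 genes divided along that split. Dcn (decorin, a matrix proteoglycan of fibroblasts) was at 3866 CPM in cluster c02.04 and at 1323 CPM in cluster c13.01 and at no more than 158 CPM in the other mesothelial-like clusters, and the clusters were separated at 1000 CPM after these values were seen. Of the Dcn-high nuclei 218 came from VAT replicate 1 and 271 from VAT replicate 2, and of the Dcn-low nuclei 1559 came from VAT replicate 2. In VAT replicate 1 every mesothelial-like nucleus was therefore Dcn-high.

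Il1rapl1 reached 1603 CPM (95% Poisson interval 1484 to 1729) in Dcn-high nuclei of VAT replicate 1 and 1970 CPM (1852 to 2094) in those of VAT replicate 2, and stood at 135 CPM (124 to 148) in Dcn-low nuclei of VAT replicate 2. After each nucleus was thinned to 1000 UMIs, 59.6% and 67.2% of the Dcn-high nuclei still had an Il1rapl1 UMI, against 9.36% of the Dcn-low nuclei and 6.20% of the immune-like nuclei of VAT replicate 2, taken as the background of that library (73.4%, 80.1%, 15.3% and 7.72% before thinning). The median depths were 1618, 1668, 1918 and 1303 UMIs in that order. The Dcn-high level was high in both libraries, and the Dcn-low level was above the 62.3 CPM (51.4 to 74.8) of the immune-like nuclei of its library but far below the Dcn-high level. Of the 355 nuclei in the series with at least 3 Il1rapl1 UMIs, 216 were Dcn-high mesothelial-like, 64 were Dcn-low and 12 were fibroblast-like.

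Asic2 had the same order of levels, but was less concentrated. It stood at 811 CPM (727 to 902) and 1312 CPM (1216 to 1414) in Dcn-high nuclei of VAT replicates 1 and 2, and at 236 CPM (221 to 252) in Dcn-low nuclei. The thinned shares were 42.2%, 55.4% and 18.0%, against 8.32% of the immune-like nuclei of VAT replicate 2. Of the 395 nuclei with at least 3 Asic2 UMIs, 152 were Dcn-high mesothelial-like, 88 were Dcn-low, 39 were immune-like, 34 were unnamed and 23 were oviduct secretory-like. Within the Dcn-high nuclei the 2 genes were not confined to the same nuclei: in VAT replicate 1, 42.3% of the nuclei with an Il1rapl1 UMI and 42.0% of those without it had an Asic2 UMI, and in VAT replicate 2 the shares were 60.4% and 44.9%, all on thinned counts. In the same nuclei the paralog Il1rapl2 was at 9.54 and 28.6 CPM, and the paralog Asic1 at 0 UMIs in both libraries.

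Magi1 and Syne2 had the opposite order. Magi1 was at 265 CPM (218 to 319) and 488 CPM (430 to 552) in Dcn-high nuclei of VAT replicates 1 and 2 and at 2521 CPM (2471 to 2573) in Dcn-low nuclei. Syne2 was at 663 CPM (587 to 746), 540 CPM (479 to 606) and 3551 CPM (3491 to 3612) in the same order. Nearly every Dcn-low nucleus carried them, since 86.5% had a Magi1 UMI and 92.5% a Syne2 UMI after thinning. The contrast between Dcn-low and Dcn-high nuclei rests on VAT replicate 2, because VAT replicate 1 had no Dcn-low nuclei. The paralog Syne1 (nesprin-1) ran the other way, at 546 and 246 CPM in Dcn-high and 156 CPM in Dcn-low nuclei, as did Magi2, at 532 and 387 against 266 CPM.

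Both kinds of nuclei carried the mesothelial markers Upk3b and Msln, and their name rests on the mesothelial list. Dcn-low nuclei were found in number only in VAT replicate 2, the library that also held ovarian-like and oviduct-like nuclei. Whether they lay on the fat or on the ovary was not tested. Upk3b (uroplakin 3b) was at 868 and 769 CPM in Dcn-high and 504 CPM in Dcn-low nuclei, and Msln (mesothelin) was at 439, 252 and 109 CPM. In fibroblast-like nuclei of the 4 SAT libraries both were at 0 UMIs. Pdgfra, the receptor that marks fibroblast progenitors, was at 31.0 and 9.54 CPM in Dcn-high and 4.52 CPM in Dcn-low nuclei, against 439 to 1045 CPM in fibroblast-like nuclei. The complement gene C3 was at 4019 and 3774 CPM in Dcn-high nuclei and at 120 CPM in Dcn-low nuclei. Dcn-low nuclei instead held Lgr5 (a stem cell-associated receptor) at 1084 CPM and Lhx9 and Gata4, transcription factors of the developing gonad, at 515 and 755 CPM, where the Dcn-high nuclei held 35.8, 0 and 33.4 CPM in VAT replicate 1 and 103, 22.9 and 49.6 CPM in VAT replicate 2. All 9 fibroblast and all 9 mesothelial markers had UMIs in Dcn-high nuclei, with the fibroblast list at 6891 and 2555 CPM in sum and the mesothelial list at 5539 and 4644 CPM. Doublets were not removed, and their part in the Dcn level of these nuclei was not tested.

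**Figure D2:**
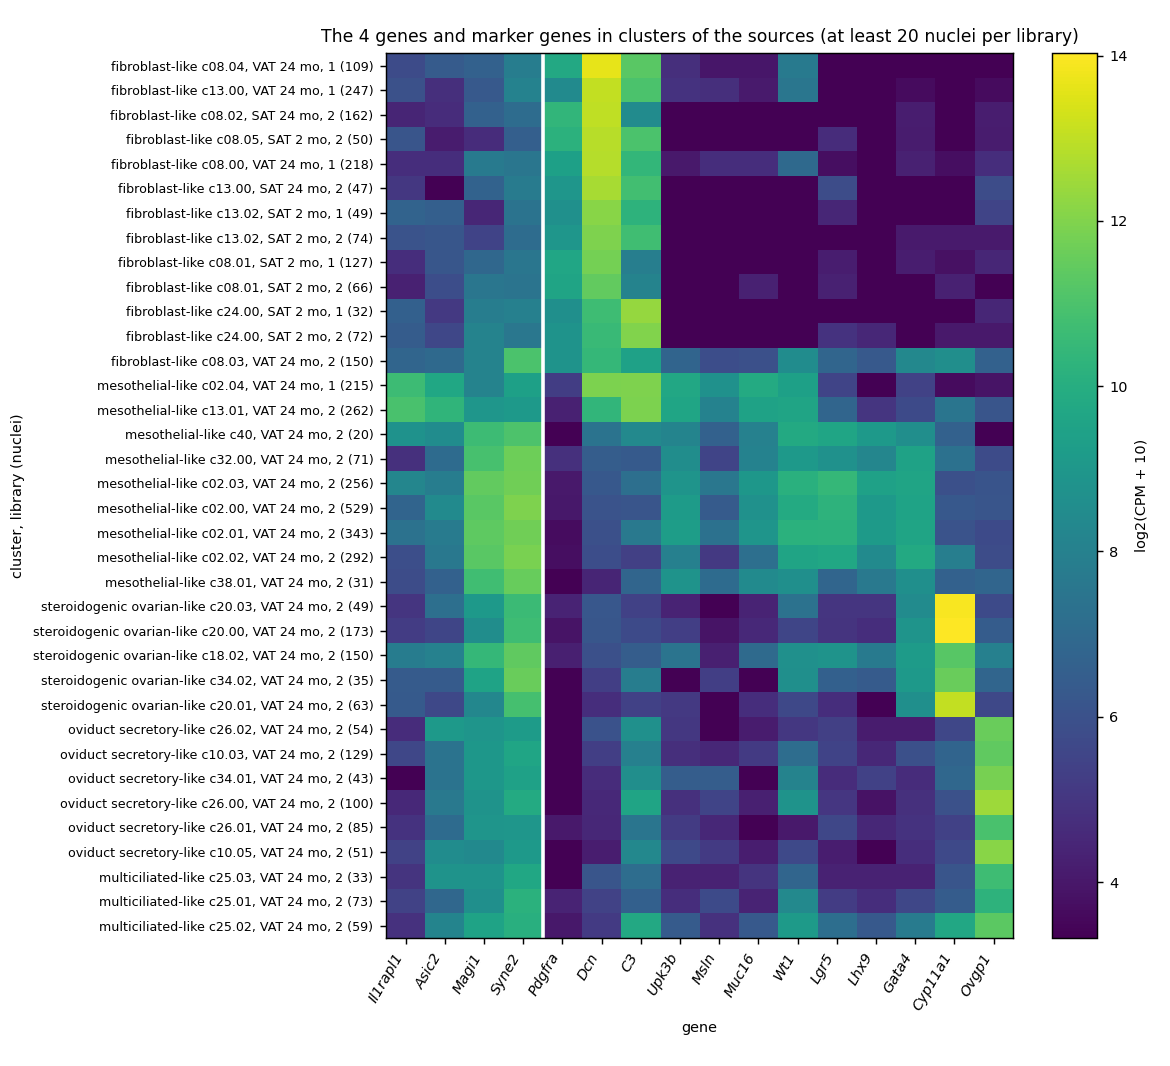
Level (colour, log2(CPM + 10)) of the 4 genes and of marker genes in each cluster and library of the sources with at least 20 nuclei. Rows c02.04 and c13.01, the Dcn-high mesothelial-like clusters of VAT replicates 1 and 2, are the bright rows for Il1rapl1 and Asic2, and the Dcn-low rows below them are bright for Magi1 and Syne2.

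The Dcn-high nuclei of the 2 VAT libraries had been placed apart at the first clustering. Those of VAT replicate 1 (cluster c02.04, led by Nxph1, Sntg1, Adamtsl1, Fmo2 and Flrt2) lay with the other mesothelial-like nuclei. Of those of VAT replicate 2, 262 lay in a cluster of fibroblast-like nuclei and came away from it only when it was clustered again (cluster c13.01, led by Il1rapl1, Bicd1, Pcdh11x, Rbfox1 and C3, though the 4 genes were kept out of the genes used for clustering). Before that, VAT replicate 2 had 452 fibroblast-like nuclei with Il1rapl1 at 1277 CPM and Asic2 at 837 CPM. The 262 nuclei were 58.0% of them and held 96.3% of their Il1rapl1 UMIs (994 of 1032), 95% of their Asic2 UMIs, 76.9% of their Magi1 UMIs and 36.6% of their Syne2 UMIs. In VAT replicate 1 the first clustering had placed only 3 Dcn-high nuclei among 584 fibroblast-like ones, with 1 of their 36 Il1rapl1 UMIs. With a gate on Pdgfra and Dcn in place of clustering, Dcn-high mesothelial-like nuclei made up 4.83% and 14.3% of the gated nuclei of VAT replicates 1 and 2. They held 69.2% and 79.5% of the Il1rapl1 UMIs of the gate and 50.6% and 73.9% of its Asic2 UMIs, but 5.91% and 24.4% of its Magi1 UMIs and 7.90% and 11.4% of its Syne2 UMIs.

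After the second clustering, fibroblast-like nuclei had far lower levels of Il1rapl1 and Asic2 than Dcn-high nuclei in every library. The SAT libraries gave 40.7 and 53.2 CPM of Il1rapl1 at 2 months and 38.9 and 25.1 CPM at 24 months, and the VAT libraries 38.4 and 124 CPM, from 5 to 38 UMIs each. VAT replicate 1 lay within the SAT libraries and VAT replicate 2 above all of them. The thinned share of fibroblast-like nuclei with an Il1rapl1 UMI was 2.00% to 5.19% in the other 5 libraries and 9.28% in VAT replicate 2. The immune-like nuclei of the same libraries stood at 10.7 to 62.3 CPM, and in the 5 libraries other than VAT replicate 2 the counting intervals of fibroblast-like and immune-like nuclei overlapped, while in VAT replicate 2 they did not (87.5 to 170 against 51.4 to 74.8 CPM). This describes the counts of single libraries and is no test.

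Asic2 in fibroblast-like nuclei was at 55.7 and 38.5 CPM in young SAT, 31.1 and 12.6 CPM in old SAT, and 27.4 and 124 CPM in VAT replicates 1 and 2, with VAT replicate 2 above the rest. There the interval, 87.5 to 170 CPM, overlapped that of the immune-like nuclei of the library, 74.8 to 102 CPM, unlike that of Il1rapl1. Magi1 was at 107 and 127, 202 and 103, and 118 and 244 CPM in the same order, and VAT and SAT at 24 months overlapped. On the log2(CPM + 10) scale VAT exceeded SAT at 24 months by 0.96 for Il1rapl1, 1.22 for Asic2, 0.22 for Magi1 and 2.16 for Syne2, with a spread within groups of 0.77, 1.01, 0.67 and 1.41. Without VAT replicate 2 these differences were 0.22, 0.30, -0.27 and 0.77.

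In fibroblast-like nuclei of SAT, Syne2 had 199 and 138 CPM at 2 months and 109 and 146 CPM at 24 months, and those of VAT had 221 CPM in replicate 1 but 1587 CPM in replicate 2. That value came from 1 cluster, c08.03, which held 154 nuclei, 97.4% of them from VAT replicate 2, and whose leading genes included Kcnt2, Frmd5, Csmd1 and Rad51b. It was named from the fibroblast list, with 9 of 9 markers over 2-fold, but 8 of the 9 steroidogenic ovarian markers were over 2-fold as well, and 5 of its 10 leading genes were highest in another class. Its 150 nuclei of VAT replicate 2 held Syne2 at 2005 CPM, Pdgfra at 441 CPM and Dcn at 1401 CPM, beside Cyp11a1 (the first enzyme of steroid synthesis) at 377 CPM and Gata4 at 309 CPM. Without that cluster, Syne2 in the remaining 44 fibroblast-like nuclei of VAT replicate 2 was at 269.8 CPM, near the 222 CPM of VAT replicate 1, whereas Il1rapl1 and Asic2 were at 189 and 148 CPM.

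The other 8 fibroblast-like clusters drew 53.7% to 94.3% of their nuclei from 1 library each, and are given for libraries with at least 20 nuclei. The clusters c13.00 (Pi16, Fndc1, Fbn1, Fstl1 and Tnxb, 247 of 336 nuclei from VAT replicate 1) and c13.02 (Pi16, Col1a2, Col1a1, Col3a1 and Cd34, from SAT at 2 months) were both led by Pi16. Il1rapl1 was at 53.5 CPM in VAT replicate 1 and 23.4 CPM in SAT at 24 months replicate 2 in c13.00, and at 97.1 and 56.1 CPM in young SAT in c13.02. The clusters c08.00 (Tmeff2, Lama2, Dcn, Thsd7a and Abca8a) and c08.04 (Dcn, Mgp, Tnxb, Sntg1 and Plac9) had 16.2 and 45 CPM in VAT replicate 1. The clusters c08.01 (Col1a1, Postn, Col1a2, Lama2 and Col3a1), c08.02 (Col3a1, Sparcl1, Lama2, Col6a3 and Dcn), c08.05 (Col1a2, Col1a1, Thbs2, Col3a1 and Plac8) and c24.00 (Ccl21a, Csmd1, Ccl19, C3 and Cxcl12) came mainly from SAT, and their Il1rapl1 ran from 9.57 to 86.3 CPM. None of the 8 clusters came near the Dcn-high mesothelial-like level.

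Markers of the other sources moved with the level of VAT replicate 2. In its fibroblast-like nuclei, 73.2% had a UMI of the mesothelial, steroidogenic ovarian or oviduct lists, against 30.1% in VAT replicate 1 and 11.2% to 22.9% in SAT. The summed mesothelial list was at 706 CPM there, at 230 CPM in VAT replicate 1 and at 15.5 to 31.2 CPM in SAT, with Upk3b and Msln at 0 in SAT, and the steroidogenic list was at 829 CPM there, at 26.3 CPM in VAT replicate 1 and at 12.6 to 55.7 CPM in SAT. In the 52 fibroblast-like nuclei of VAT replicate 2 with none of these UMIs, Il1rapl1 was at 86.5 CPM, Asic2 at 148 CPM, Magi1 at 210 CPM and Syne2 at 1136 CPM. The part of free RNA in these levels was not tested.

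**Figure D3:**
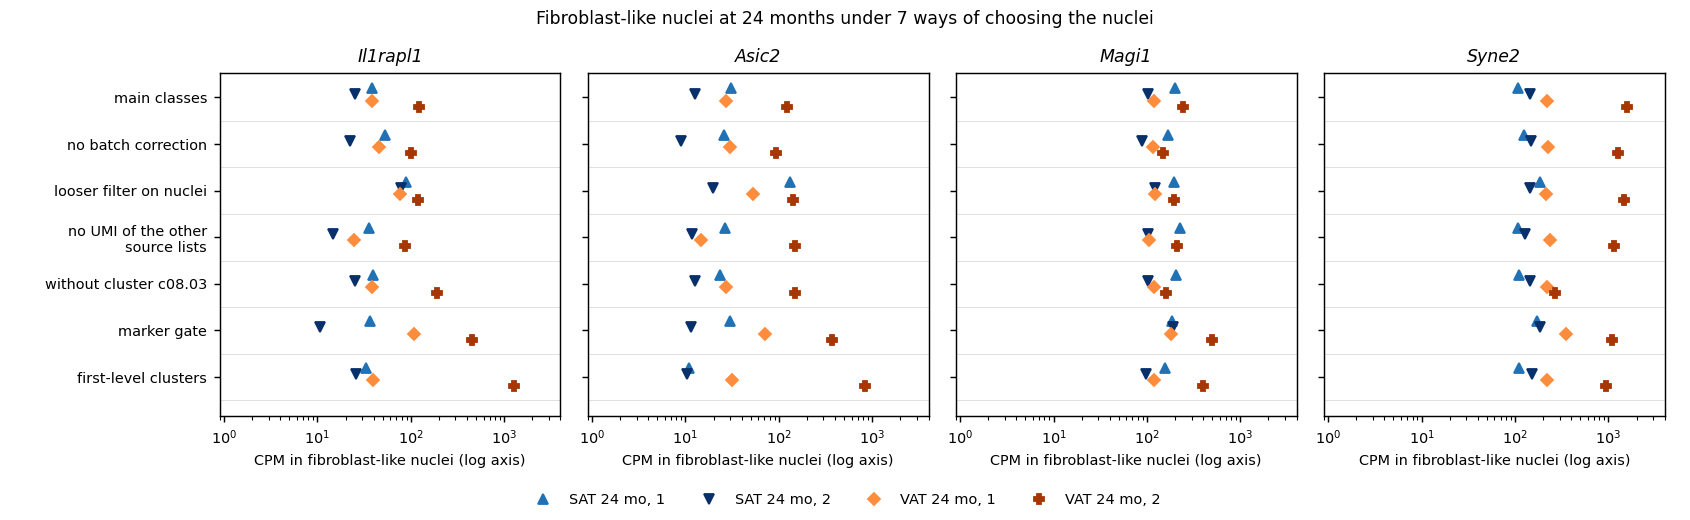
Level (x axis, CPM, log axis) of each gene in fibroblast-like nuclei of the 4 libraries at 24 months, 1 point per library, under 7 ways of choosing the nuclei (y axis). VAT replicate 2 moves from 124 CPM of Il1rapl1 in the main classes to 1277 CPM in the first-level clusters, and from 1587 to 269.8 CPM of Syne2 without cluster c08.03.

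The ovarian-like and oviduct-like nuclei, which only VAT replicate 2 held in number, had Syne2 and Magi1 above the levels in immune-like nuclei of that library (232 and 98.6 CPM). In steroidogenic ovarian-like nuclei (Cyp11a1 at 11072 CPM), Syne2 was at 2059 CPM (1968 to 2152), Magi1 at 629 CPM (580 to 682), Asic2 at 100.1 CPM (81.0 to 122) and Il1rapl1 at 78.0 CPM (61.2 to 97.9). Across the 5 steroidogenic clusters Syne2 ran from 1575 to 3084 CPM and Magi1 from 299 to 1391 CPM. In oviduct secretory-like nuclei (Ovgp1, the oviduct glycoprotein, at 3643 CPM), Syne2 was at 694 CPM (641 to 749), Magi1 at 457 CPM (414 to 502), Asic2 at 239 CPM (209 to 273) and Il1rapl1 at 22.7 CPM (14.1 to 34.7). Within the latter, Asic2 ran from 123 to 533 CPM over the 6 clusters, highest in 54 nuclei led by Abcb5, Rnf128, Padi1, Bcat1 and Mecom. The Il1rapl1 and Asic2 intervals of the steroidogenic nuclei overlapped those of the immune-like nuclei of VAT replicate 2.

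**Figure D4:**
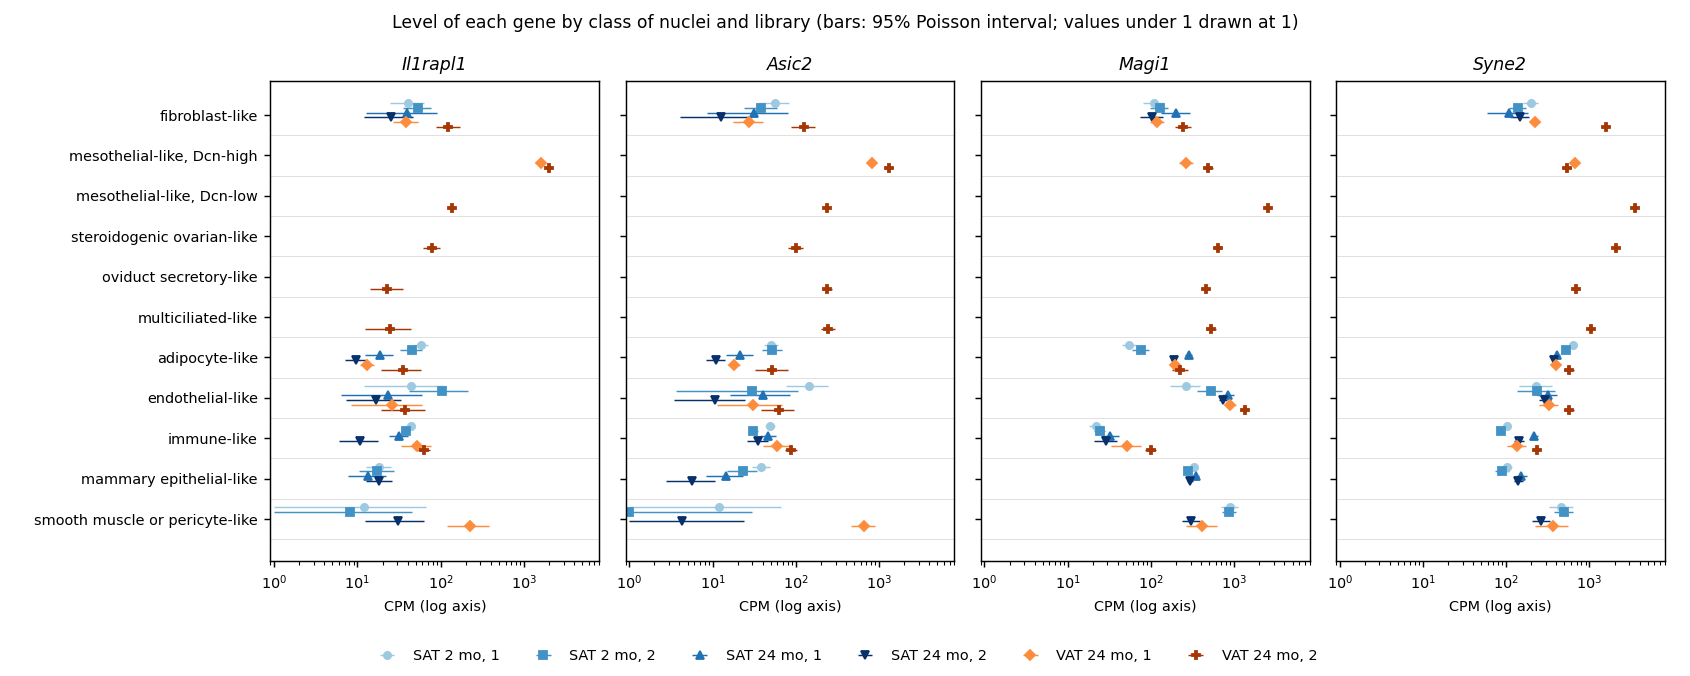
Level (x axis, CPM, log axis, with 95% Poisson intervals) of the 4 genes in 11 classes of nuclei, 1 point per library with at least 20 nuclei. Il1rapl1 and Asic2 are highest in Dcn-high mesothelial-like nuclei of both VAT libraries, and Magi1 and Syne2 in the Dcn-low nuclei of VAT replicate 2.

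Outside the sources, each gene had an order of its own. Among named classes of VAT replicate 2, the level of Syne2 went from Dcn-low mesothelial-like (3551 CPM) through steroidogenic (2059), fibroblast-like (1587), multiciliated-like (1044) and oviduct-like nuclei (694) to endothelial-like (570), adipocyte-like (568) and Dcn-high nuclei (540), the last 3 with overlapping intervals, and to immune-like nuclei (232). For Magi1, endothelial-like nuclei followed the Dcn-low nuclei in that library, at 1329 CPM (1206 to 1461), and they were the highest class of VAT replicate 1, at 892 CPM, and of SAT at 24 months, at 849 and 731 CPM. Smooth muscle or pericyte-like nuclei of young SAT had Magi1 at 876 and 862 CPM, above the 264 and 518 CPM of the endothelial-like nuclei there. The levels of Il1rapl1 in adipocyte-like, immune-like, endothelial-like and mammary epithelial-like nuclei stayed between 9.48 and 104 CPM in all libraries.

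The likeness of other genes was measured by Pearson correlation of log2(CPM + 10) over 38 class and library sums from 11 classes, among 15441 genes with at least 200 UMIs. The sums of a library share its depth and its free RNA, so the values describe these sums. The genes most like Il1rapl1 were Myrf (r = 0.80), Asic2 (0.79), Nkain4, Sv2a and Gata6os (0.78 each), and those most like Asic2 were Myrf (0.81), Cacnb2 (0.81), Kcnd3 (0.80), Il1rapl1 (0.79) and Ppm1e (0.79). Magi1 was most like Myo1d (0.86), Sema3f (0.84), Bcar1 (0.82), Ptprk (0.82) and Cdc42bpa (0.81), and the genes most like Syne2 included Tiparp and Prpf40b (0.77 each), Mt1 (0.76) and Kank1 (0.75). Il1rapl1 and Asic2 were in each other's list. Syne2 had r = 0.59 with Magi1, 0.53 with Asic2 and 0.48 with Il1rapl1, and Magi1 had r = 0.16 with Il1rapl1 and 0.18 with Asic2.

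Genes of the same families were read from lists. Among the partners of Il1rapl1, the phosphatase Ptprd was at 947 and 2292 CPM in Dcn-high nuclei and 2921 CPM in Dcn-low nuclei, against 117 to 317 CPM in fibroblast-like nuclei of the 5 libraries other than VAT replicate 2 and 1249 CPM in those of VAT replicate 2. The receptor Il1r1 was at 90.6 and 225 CPM in Dcn-high nuclei, against 277 to 591 CPM in fibroblast-like nuclei of the 5 libraries and 202 CPM in those of VAT replicate 2. In VAT replicate 2 Ptprd was therefore also high in fibroblast-like nuclei, and Il1r1 was no lower in Dcn-high than in fibroblast-like nuclei. None of the other degenerin subunits passed 38.2 CPM in mesothelial-like nuclei. Of the 4 other genes that the study used to mark its fibroblast subsets, Gsn and Ebf1 were at 4354 to 15505 and 1556 to 2821 CPM in fibroblast-like nuclei of those 5 libraries and at 1015 and 498 CPM in those of VAT replicate 2, but at 570 and 120 CPM (Gsn) and 367 and 32.4 CPM (Ebf1) in Dcn-high nuclei of VAT replicates 1 and 2. S1pr3 was at 2.39 and 0 CPM there, against 19.7 and 16.3 CPM in fibroblast-like nuclei of VAT. Bst1 did not follow that order, at 16.7 and 11.4 CPM in Dcn-high and 2.19 and 6.50 CPM in fibroblast-like nuclei of VAT, although fibroblast-like nuclei of SAT had 15.1 to 132 CPM.

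The rule that chose the genes did not use the age contrast, and the change in SAT from 2 to 24 months was tested in summed counts (edgeR quasi-likelihood test, adjusted over all genes of the class). The study had picked the 4 genes as markers of fibroblast subsets in libraries of both ages, so the values in fibroblast-like nuclei are not independent of that choice. Mesothelial-like nuclei were too few in SAT for this test. In adipocyte-like nuclei 3 of the 4 genes changed, Il1rapl1 and Asic2 downward and Magi1 upward, where 17% of 13128 genes were called. Magi1 was at 54.6 and 75 CPM at 2 months and 284 and 187 CPM at 24 months, with no overlap, a log2 fold change of 2.05 ± 0.30 (SE, adjusted p = 0.000931). Both VAT libraries at 24 months, at 194 and 224 CPM, lay in the same range as SAT at that age. Il1rapl1 was at 58.1 and 45 CPM at 2 months and 18.6 and 9.48 CPM at 24 months (log2 fold change -1.82 ± 0.46, adjusted p = 0.0199). Asic2 was at 50.6 and 52.0 CPM and then at 21.4 and 11.0 CPM (-1.58 ± 0.46, adjusted p = 0.0356). The calls of Il1rapl1 and Asic2 rest on 27 to 117 UMIs per library and were lost without SAT at 2 months replicate 1 (adjusted p = 0.161 and 0.154), without SAT at 2 months replicate 2 (0.0559 and 0.142) or without SAT at 24 months replicate 2 (0.0807 and 0.157), and that of Asic2 also with DESeq2 (0.0554).

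Levels in several other classes of the same libraries were also lower at 24 months. Immune-like nuclei of SAT had Il1rapl1 at 43.4 and 37.7 CPM at 2 months and 31.4 and 10.7 CPM at 24 months, and in fibroblast-like nuclei at 40.7 and 53.2 and then 38.9 and 25.1 CPM, so in SAT at 2 months the adipocyte-like level was near that of these classes. Mammary epithelial-like nuclei had it at 18.1 and 17.4 CPM and then at 13.5 and 18.3 CPM, with overlap. Endothelial-like nuclei had it at 44.0 and 104 CPM and then at 23.3 and 16.9 CPM, without overlap but from 4 to 8 UMIs per library. Asic2 went from 55.7 and 38.5 to 31.1 and 12.6 CPM in fibroblast-like nuclei, from 143 and 29.6 to 40.7 and 10.5 CPM with overlap in endothelial-like nuclei, and lower in mammary epithelial-like nuclei as given below. In immune-like nuclei Asic2 was at 48.8 and 30.3 CPM and then at 46.4 and 34.9 CPM, and the ages overlapped. A cluster of 17 immune-like nuclei, 15 of them from SAT at 2 months, held 139 Asic2 UMIs, where the immune-like nuclei of those libraries held 237 and 205 in all. The summed immune list in adipocyte-like nuclei of SAT went from 735 and 1297 CPM at 2 months to 257 and 134 CPM at 24 months, with all 8 markers detected in each library, and immune-like nuclei made up 58.1% and 73.2% and then 41.2% and 16.01% of the libraries. The part of these in the lower levels was not tested. Whether these low levels are expression or free RNA was not tested.

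Syne2 in adipocyte-like nuclei stood at 635 and 523 CPM at 2 months and 409 and 379 CPM at 24 months, without overlap, but did not pass the test (log2 fold change -0.39 ± 0.27, adjusted p = 0.358). Its values were higher at 24 months in 3 other classes, also without passing it, going from 102 and 85.7 to 219 and 142 CPM in immune-like nuclei (1.04 ± 0.32, adjusted p = 0.428), from 102 and 89.6 to 153 and 140 CPM in mammary epithelial-like nuclei (0.59 ± 0.19, adjusted p = 0.0934) and from 231 and 237 to 314 and 293 CPM in endothelial-like nuclei (0.58 ± 0.46, adjusted p = 0.597). In fibroblast-like nuclei the ages overlapped, with a log2 fold change of -0.30 ± 0.77. That fit held all groups, so its error also takes in the spread of the VAT libraries, at 221 and 1587 CPM.

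In mammary epithelial-like nuclei, where 7.54% of 12075 genes were called, Asic2 fell from 38.5 and 22.9 CPM to 14.3 and 5.73 CPM (-1.71 ± 0.48, adjusted p = 0.0489). That call was lost with DESeq2 (adjusted p = 0.116), with library-size scaling (0.0545) and without SAT at 2 months replicate 1 (0.356) or SAT at 24 months replicate 2 (0.118). None of the 4 genes was called in fibroblast-like nuclei, where 0% of 9187 genes were called (868 at an unadjusted p under 0.05, and 12 by DESeq2), in immune-like nuclei (0% of 14358, 1449 unadjusted, 116 by DESeq2) or in endothelial-like nuclei (0.0338% of 5916). The lowest adjusted p among these was that of Magi1 in endothelial-like nuclei, from 264 and 518 to 849 and 731 CPM (1.22 ± 0.49, adjusted p = 0.330). The fibroblast-like nuclei of the 2 ages also came from different clusters, with c08.01, c13.02 and c24.00 holding most at 2 months and c08.02 and c13.00 most at 24 months. Counts were summed per class, so the make-up of a class from its clusters was not taken into account. This holds for each tested class, mammary epithelial-like nuclei included. Counts were also simulated from the fibroblast-like sums of all libraries, with a common dispersion for all genes. Of genes picked at random, 18 of 100 with a 4-fold change and 0 of 100 with a 2-fold change were recovered. Changes of that size were thus mostly not detectable in such counts, and the power for the 4 genes was not measured.

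**Figure D5:**
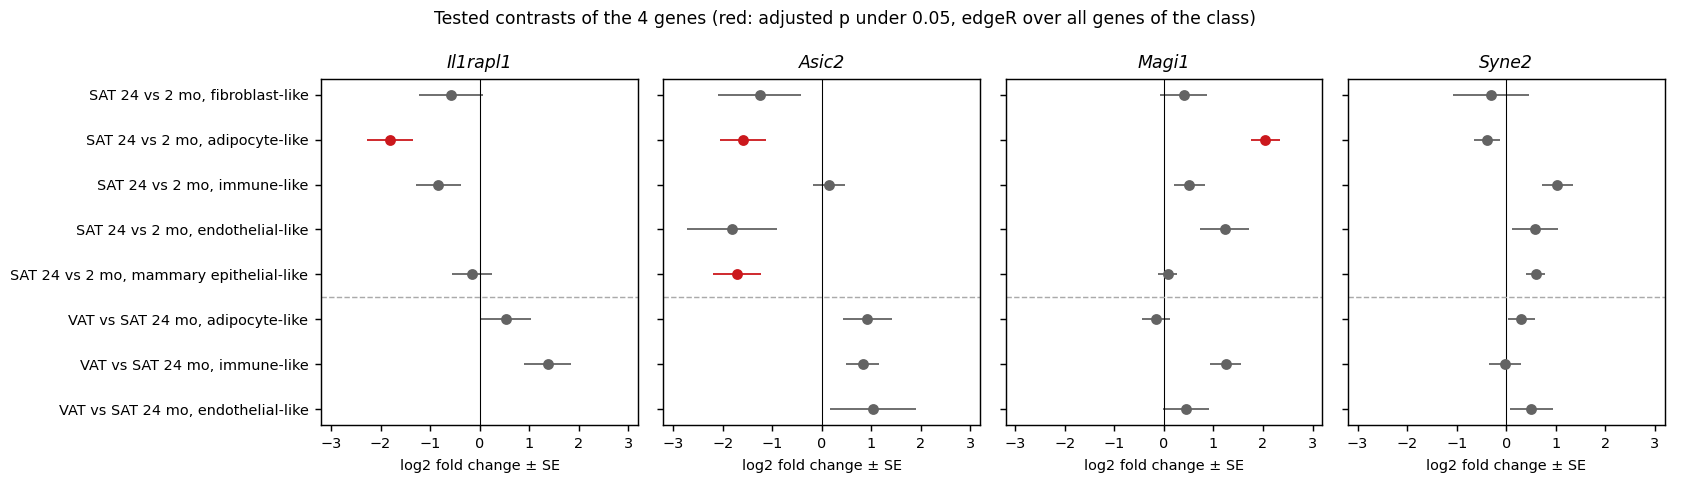
Log2 fold change with its standard error (x axis) of each gene in the tested contrasts (y axis), SAT at 24 against 2 months above the dashed line and VAT against SAT at 24 months below it. Red points passed an adjusted p of 0.05, which were Il1rapl1, Asic2 and Magi1 in adipocyte-like and Asic2 in mammary epithelial-like nuclei.

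Between the depots at 24 months the 4 genes were tested only in classes that had not served to choose them. None was called in adipocyte-like nuclei, where 0.168% of 13128 genes were called, in immune-like nuclei (0% of 14358, 1478 at an unadjusted p under 0.05, 236 by DESeq2) or in endothelial-like nuclei (0% of 5916, 318 unadjusted, 13 by DESeq2). In immune-like nuclei the log2 fold changes were 1.38 ± 0.47 for Il1rapl1, 0.82 ± 0.33 for Asic2, 1.25 ± 0.32 for Magi1 and -0.02 ± 0.32 for Syne2 (adjusted p = 0.416, 0.471, 0.297 and 0.991). Magi1 was at 51.4 and 98.6 CPM in immune-like nuclei of VAT and at 32.5 and 29.2 CPM in SAT, without overlap. Il1rapl1 did not overlap there either (51.4 and 62.3 against 31.4 and 10.7 CPM), nor did Asic2 (59.9 and 87.8 against 46.4 and 34.9 CPM), and for all 3 genes both VAT libraries were above SAT. The summed mesothelial list was also higher in immune-like nuclei of VAT, at 169 and 210 CPM with 8 and 9 of its 9 markers detected, than in SAT at 24 months, at 30.4 and 27.7 CPM with 8 and 7, and its part in these levels was not tested. In adipocyte-like nuclei Il1rapl1 was at 13 and 34.8 CPM in VAT against 18.6 and 9.48 CPM in SAT, and the groups overlapped for all 4 genes. The endothelial-like nuclei had too few Il1rapl1 UMIs to be tested.

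Of the gene lists around the 4 genes, few other members were called. In adipocyte-like nuclei of SAT, where 17% of all genes were called, 3 of 10 tested genes of the interleukin-1 receptor and phosphatase list fell with age and none rose, namely Il1rapl2 (-2.48 ± 0.41, adjusted p = 0.00202), Sigirr (-2.21 ± 0.53, adjusted p = 0.0155) and Il1rapl1, and the median of the list was -0.26 against -0.01 over all genes tested. Sigirr was at 23.3 and 38.0 CPM at 2 months and 6.89 and 5.12 CPM at 24 months there. In immune-like nuclei of the same libraries it was at 118 and 116 and then 70.3 and 50.5 CPM. The summed immune list in adipocyte-like nuclei also fell, as given above, and its part in this change was not tested. Of 12 junctional scaffolds 1 rose, which was Magi1, and of 10 genes of the nuclear envelope list 1 fell, Sun2 (-0.92 ± 0.25, adjusted p = 0.0271), a partner of nesprins in the inner nuclear membrane. Ebf1, a transcription factor of adipocyte progenitors, rose (2.49 ± 0.34, adjusted p = 0.000616), from the list of the study's fibroblast subset markers, of which 2 of 6 tested rose and 2 fell, and that list was chosen by the study on libraries that include these. In mammary epithelial-like nuclei, where 7.54% of all genes were called, the sodium channel subunit Scnn1b rose (1.24 ± 0.23, adjusted p = 0.00650) while Asic2 fell, of 4 tested. Between depots 1 of 10 of the interleukin-1 receptor and phosphatase list was called in adipocyte-like nuclei, against 0.168% of all genes, and this was Il18r1, which was lower in VAT (-3.26 ± 0.55, adjusted p = 0.0406).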

How the data were processed

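Single-nucleus libraries were analysed from matrices in which the authors deposited unnormalized UMI counts. By the study's methods, nuclei were captured on a Singleron chip and Celescope was run with GRCm39; its version, the annotation release and the strand setting are not given in the sources used here. Of 50859 barcodes, 27074 had more than 500 genes, more than 1000 UMIs and a mitochondrial share below 15%, and these were used.

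Nuclei were clustered on 1000 variable genes without the 4 genes, with 30 principal components, an own implementation of Harmony by library, 20 neighbours and Leiden at resolution 2. Source and mixed clusters were clustered again at resolution 1 without correction. A cluster was named when at least 3 markers of a list were over 2-fold, that list scored highest (mean log2 fold at least 0.5), and its defining markers were over 2-fold (Pdgfra and Dcn, Upk3b and Msln, Cyp11a1, Ovgp1, or Dnah12 and Foxj1). It stayed unnamed where its 10 leading genes held more markers of another list, where repeat-like transcripts led it with no marker, where another list scored within 0.5, or where over 7 leading genes were highest in another class. Several of these limits were set after the clusters were seen. Of 116 clusters 85 were named, and 2497 nuclei stayed unnamed. Scrublet marked 36 nuclei (0.133%) and was taken as not having worked, so doublets were kept.

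Levels are CPM of UMIs summed per library and class (at least 20 nuclei). Tests used edgeR 4.0.16 (TMM, filterByExpr, all groups in 1 fit, two-sided, Benjamini-Hochberg over all genes), with DESeq2 1.42.0 as an alternative, in R 4.3.3, Python 3.11.15, scanpy 1.11.5 and leidenalg 0.10.2. Except in mammary epithelial-like nuclei, the fits held the VAT libraries, whose spread thus entered the error of the SAT age tests. On simulated adipocyte-like sums, 75 of 100 genes with a log2 fold of 2 and 13 of 100 with a log2 fold of 1 were recovered among 13128 genes. The genes, lists and tests were chosen with earlier results of these data known. Named genes are the 4 genes, their closest paralogs, called list genes, the 5 genes most like each, source markers and 5 leading genes of each fibroblast-like cluster; C3, Lgr5, Lhx9, Gata4, Ptprd, Il1r1, Gsn, Ebf1, S1pr3, Bst1 and Scnn1a levels and leading genes of other clusters were chosen after their values were seen. Some genes that the naming rules picked are not reported here.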

Additional observations from a re-analysis of the deposited data

Results flagged for a closer look

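The level of Syne2 differed with age in SAT in opposite directions in 4 classes, in each of which the ages did not overlap. On the log2(CPM + 10) scale, 24 minus 2 months was -0.54 in adipocyte-like nuclei, 0.85 in immune-like, 0.36 in endothelial-like and 0.56 in mammary epithelial-like nuclei, so adipocyte-like nuclei differed by -1.39, -0.90 and -1.10 from these 3. In fibroblast-like nuclei it was -0.37, in the same direction as in adipocyte-like nuclei, but the ages overlapped. The difference between classes was not tested, and none of the 4 changes passed the test across all genes.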

How the results depend on the processing

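The counts of the 4 genes called kept within 1.5 times of the main count in 72 of 79 alternatives over 8 class contrasts, and 7 moved. A count of 0 that stayed at 0 was taken as kept. Only the age contrasts in adipocyte-like and mammary epithelial-like nuclei had a call, and all 7 lie in these, so the 72 mostly hold counts of 0. In mammary epithelial-like nuclei 1 was called, against 0 with DESeq2 and 0 with library-size scaling, and leaving out 1 library gave 0 to 1 there and 1 to 3 in adipocyte-like nuclei, with 0 throughout in the other contrasts. Over all genes, called counts depended more on the processing. For SAT age they were 0 in fibroblast-like (DESeq2 12, no filter on low counts 162, leaving out 1 library 0 to 3), 2231 in adipocyte-like (DESeq2 1457, leave-one-out 601 to 2691), 0 in immune-like (DESeq2 116, no filter 779, leave-one-out 0 to 214), 2 in endothelial-like (DESeq2 49, library-size scaling 8, no filter 164, leave-one-out 0 to 87) and 910 in mammary epithelial-like nuclei (DESeq2 598, leave-one-out 570 to 1363). For the depots they were 22 in adipocyte-like (DESeq2 34, no filter 164, leave-one-out 15 to 338), 0 in immune-like (DESeq2 236, no filter 609, leave-one-out 0 to 332) and 0 in endothelial-like nuclei (DESeq2 13, no filter 85, leave-one-out 0 to 137). Whether same-numbered libraries share a mouse is not given in the sources used here. Their deviations from the group means correlated at -0.50 to 0.14 across 4 classes (0.14 between the depots in adipocyte-like nuclei), so the numbers were not taken as pairs, and the replicate block gave 41 genes for the depots in adipocyte-like and 1 for age in endothelial-like nuclei and changed no call of the 4 genes. Library-size scaling moved the median log2 fold change over all genes to -0.19, -0.10 and -0.15 for age in adipocyte-like, immune-like and endothelial-like nuclei and to 0.14 for the depots in immune-like nuclei, and in adipocyte-like nuclei Il1rapl1, Asic2 and Magi1 kept their calls.

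The difference between VAT and SAT at 24 months in fibroblast-like nuclei, on the log2(CPM + 10) scale, moved most for Il1rapl1 and Asic2. For Il1rapl1 it was 0.96, and 2.91 with the marker gate, 0.18 with all barcodes under the mitochondrial limit and 2.67 with first-level clusters, an alternative added after seeing the data. For Asic2 it was 1.22, and 2.59 with the marker gate, 0.59 with all barcodes and 3.18 with first-level clusters. For Magi1 it was 0.22, and 0.65 with the marker gate, 0.079 without batch correction, 0.79 with first-level clusters, -0.016 with all barcodes, -0.021 without nuclei that held UMIs of the other source lists and -0.07 without cluster c08.03 (added after seeing the data), and for Syne2 it was 2.16, and 0.89 without that cluster. Leaving out 1 library gave 0.22 to 1.69 for Il1rapl1, 0.30 to 2.13 for Asic2, -0.27 to 0.71 for Magi1 and 0.77 to 3.55 for Syne2. Among fold changes that did not pass the test, that of Syne2 turned to 0.15 with the marker gate (age, fibroblast-like) and to 0.053 with library-size scaling (depots, immune-like). Leaving out 1 library gave ranges that crossed 0 for Magi1 (-0.10 to 0.83, age, fibroblast-like), Asic2 (-0.15 to 0.51, age, immune-like), Il1rapl1 (-0.40 to 0.038) and Magi1 (-0.038 to 0.19, age, mammary epithelial-like), Il1rapl1 (-0.10 to 1.37) and Magi1 (-0.50 to 0.16, depots, adipocyte-like) and Syne2 (-0.38 to 0.24, depots, immune-like). The causes were not tested. Removal of doublets was not run because the caller marked too few nuclei. With 2 libraries per group and 4 to 38 UMIs per library, the depth limits the statements on Il1rapl1 and Asic2 in fibroblast-like nuclei.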

Other observations

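Among the named classes outside the sources, Asic2 had a high level in 2 small clusters. A cluster of 17 immune-like nuclei led by Marco, Cd209b, Timd4, Asic2 and C6, of which the first 3 are known from resident macrophages, held 139 Asic2 UMIs, or 4092 CPM, with Il1rapl1 at 118 CPM from 4 UMIs. Of these nuclei 15 came from SAT at 2 months (11 and 4) and 2 from SAT at 24 months replicate 1. A cluster of 21 smooth muscle or pericyte-like nuclei, all from VAT replicate 1 and led by Myh11, Cacna1c, Dmd, Smtn and Acta2, held 38 Asic2 UMIs (984 CPM), where the 3 SAT libraries with at least 20 nuclei of this class held 0 or 1 UMI each. Both clusters were noticed in the data and rest on few nuclei.

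Of the unnamed nuclei, a cluster of 65 that met the fibroblast and mesothelial lists about equally held Il1rapl1 at 166 and 702 CPM and Asic2 at 304 and 797 CPM in VAT replicates 1 and 2. Its parts differed between these libraries. The 35 nuclei of VAT replicate 2 held Cyp11a1 at 1005, Gata4 at 360, Pdgfra at 75.9 and Dcn at 455 CPM. The 25 nuclei of VAT replicate 1 held 0, 27.6, 332 and 6191 CPM in that order. A cluster of 47, led by Fmo2, Gm12381, Sntg1, Adamtsl1 and Csn3, held Il1rapl1 at 417 CPM in its 34 nuclei of VAT replicate 1. In VAT replicate 2, clusters of 29 and 31 nuclei scored highest for the mesothelial list but did not meet the conditions for that name, and held Magi1 at 1960 and 2267 CPM and Syne2 at 3759 and 3653 CPM. The 271 unnamed nuclei of SAT at 24 months replicate 1 held Asic2 at 231 CPM (98 UMIs) and Il1rapl1 at 169 CPM (72 UMIs). Both lay above every named class of that library with at least 20 nuclei. In the unnamed nuclei of replicate 2 of that group, Asic2 was at 25.7 CPM and Il1rapl1 at 26.3 CPM.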
